A study of Mus musculus with 6 samples.

Results

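The genes of the NF-kB core were examined in C0321 breast tumors, namely the 5 subunits (Nfkb1, Nfkb2, Rel, Rela and Relb), the inhibitors Nfkbia and Nfkbie, the IKK kinases Ikbkb and Chuk, and the deubiquitinase Tnfaip3. They were taken by gene symbol from the deposited count table, and their transcripts were summed to 1 value per gene. All 10 genes were present, as 16 of the 20648 transcripts and 10 of the 13730 genes. C0321 is a single mouse triple-negative breast cancer (TNBC) line that came from a tumor of a Lunatic Fringe knockout (Lfng-/-) mouse of the FVB strain, so both groups carry this deletion in their tumor cells. C0321 cells in Matrigel were placed in the mammary fat pad of a syngeneic FVB female of 6 to 10 weeks with an intact immune system, and the RNA is that of whole tumors. In the SS group, 3 mice received sulindac sulfide (SS), the form into which the body turns the anti-inflammatory drug sulindac, at 60 mg/kg per day by mouth over 14 days, and 3 control mice received the carrier. The sample labels write sulfate for the drug, where the paper writes sulfide, and the carrier is called saline in the series description and vehicle in the paper.

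NF-kB is a family of dimeric transcription factors. In resting cells the dimers are held in the cytoplasm by IkB proteins, and the IKK kinases release them by marking IkB for destruction, after which they switch on genes of inflammation, cell survival and their own inhibitors. In breast tumors the pathway is active both in cancer cells and in the leukocytes and vessels around them. Sulindac and its sulfide are among the anti-inflammatory drugs described to act on IKK. That step is a change of protein activity, which RNA counts do not measure, so the comparison here asks whether the RNA of the pathway differed between groups.

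The NF-kB genes are known to be controlled in part by NF-kB itself, through kappaB sites near their starts. RefSeq promoters (GRCm38.p6) were at hand for 7 of the 10 genes (all but Nfkb1, Relb and Ikbkb), and the 250 bases before each start were searched on both strands for the 10-base kappaB consensus. Of all 32851 promoters in that collection, 2382 held a match (7.25%), and matches on the 2 strands may overlap. The consensus was matched in 7 of the 10 promoters of these genes, which belong to 5 genes, Nfkb2, Rel, Nfkbia, Nfkbie and Tnfaip3. No match was present in this window for Rela or Chuk. A stretch of 60 bases with a match is printed for each of the 5 genes, to show the letters by which their RNA could report on the pathway, 5′ to 3′ on the strand of the gene, with the matched bases in capitals. A match is a description of these letters, not a site shown to be bound.
Nfkb2, chr19:46304677-46304736, plus strand: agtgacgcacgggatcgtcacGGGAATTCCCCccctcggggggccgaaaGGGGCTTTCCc
Rel, chr11:23771027-23771086, minus strand: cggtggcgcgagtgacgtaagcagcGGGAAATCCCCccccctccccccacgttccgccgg
Nfkbia, chr12:55492648-55492707, minus strand: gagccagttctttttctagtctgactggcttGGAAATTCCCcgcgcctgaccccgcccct
Nfkbie, chr17:45555569-45555628, plus strand: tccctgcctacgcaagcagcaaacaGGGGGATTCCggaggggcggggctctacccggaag
Tnfaip3, chr10:19015411-19015470, minus strand: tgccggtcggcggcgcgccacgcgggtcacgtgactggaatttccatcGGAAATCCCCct

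Sequencing depth lay between 8468948 and 24441553 estimated counts per tumor, and the SS group was the shallower, with a median of 12071376 against 20486405 counts. The NF-kB genes had between 27 and 11019 counts in a tumor, so counting error was largest for Rel. Markers of other cells moved between tumors as well. The summed level of 6 myeloid markers (of 9 listed) was 412 to 523 CPM (counts scaled to library size) in control and 513 to 653 CPM in SS tumors. For 3 markers of all leukocytes it was 738 to 913 CPM against 862 to 1029 CPM, and for 3 lymphoid markers (of 8 listed) 8.03 to 48.7 CPM against 4.31 to 20.7 CPM. Cd3e alone made up 7.62 to 45.8 CPM (highest in control tumor 1) and 4.05 to 19.9 CPM of the lymphoid sum. Of the 5 myeloid markers tested, 4 were higher in SS tumors on the log2 scale, Itgax (CD11c) by 1.24 with groups that did not overlap, Adgre1 (F4/80) by 0.50, Cd68 by 0.15 and Csf1r by 0.11, while Itgam (CD11b) differed by -0.26, and the groups of these last 4 overlapped. Of all genes, 6.51% were higher in SS tumors without overlap. Without control tumor 1, Cd68 turned to -0.021 and Csf1r fell to 0.0011, and without control tumor 3, Itgam turned to 0.038. The 8 tumor cell markers summed to between 7769 and 9106 CPM in control and between 6875 and 9745 CPM in SS tumors. Of these 8 markers, 6 were lower and 2 higher in SS tumors, with the largest log2 differences for Epcam (2.20, at under 3 CPM in every tumor), Krt18 (-0.50) and Cdh1 (0.41). The groups did not overlap for Krt18 and Met (log2 difference -0.22), both lower with SS, and overlapped for the other 6. Of all genes, 12.9% had groups that did not overlap, and 6.4% did so with SS lower. With 1 tumor left out, Epcam ran from 1.34 to 4.35 and Cdh1 from 0.083 to 0.93. Vim alone made up 5868 to 8610 CPM of the sum. RNA of the receptors for which TNBC is negative by pathology (Esr1, Pgr and Erbb2) summed to 25.0 to 30.5 CPM in control and 23.3 to 26.9 CPM in SS tumors. Of these sums, Erbb2 made up 17.0 to 22.3 CPM. Adipocyte markers summed to between 0.0410 and 46.3 CPM and endothelial markers to between 39.7 and 93.4 CPM. Skeletal muscle markers summed to 4857, 9111 and 851 CPM in controls 1, 2 and 3, against 279, 17482 and 9151 CPM in SS tumors 1, 2 and 3. What part these cells have in the values of the NF-kB genes was not tested.

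All 10 NF-kB genes were expressed and passed the filter on low counts, and none of them passed the test for a difference between control and SS tumors. Tested with edgeR (quasi-likelihood, adjusted by Benjamini-Hochberg over 10902 genes), the adjusted p of the 10 genes lay between 0.792 and 0.972. None had an adjusted p under 0.05, where the share of all genes tested was also 0%, and none had an unadjusted p under 0.05, a level that 693 of all genes (6.36%) reached. DESeq2's Wald test likewise gave 0 of the 10 genes at an unadjusted p under 0.05 (adjusted p between 0.668 and 0.984 for 8 of them, none given for Rel and Tnfaip3). On the log2 scale 6 of the 10 genes were higher and 4 were lower in SS tumors, with a median of 0.053, beside 49.8% higher and a median of -0.0014 among all genes. The groups did not overlap for 1 of the 10 genes, Rela, beside 1408 of all genes (12.9%). The 95% interval of the log2 fold change included 0 for all 10 genes and stayed inside a doubling or halving for 8 of them, the exceptions being Rel and Nfkbie. In whole tumors, fewer cells of one type and less RNA per cell cannot be told apart.

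**Figure D1:**
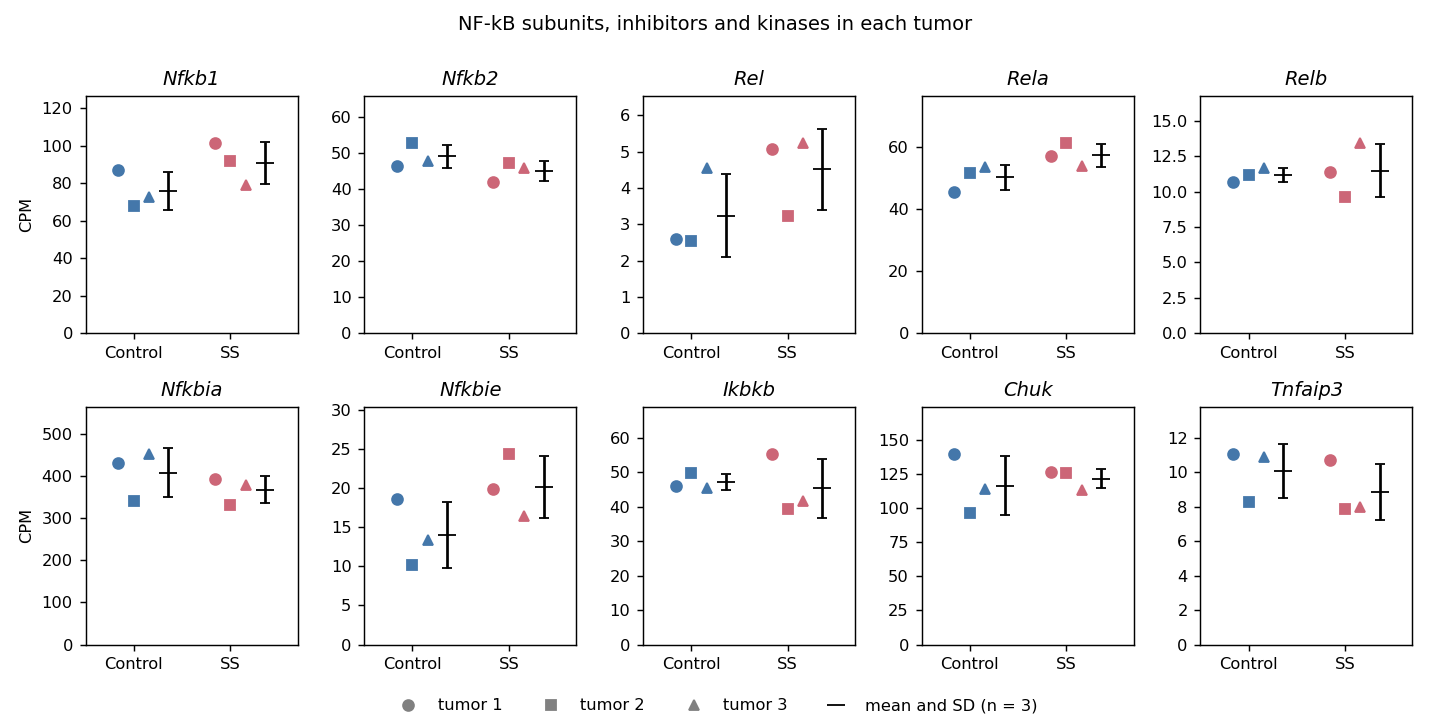
Level of each NF-kB gene in CPM (vertical axis, from 0, with its own scale per gene) in the 3 control and 3 SS tumors. Points are tumors, with the shape giving the tumor number, and bars are the mean ± SD (n = 3). Only for Rela does every SS tumor lie above every control tumor, by 53.9 against 53.6 CPM for the nearest pair.

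**Figure D2:**
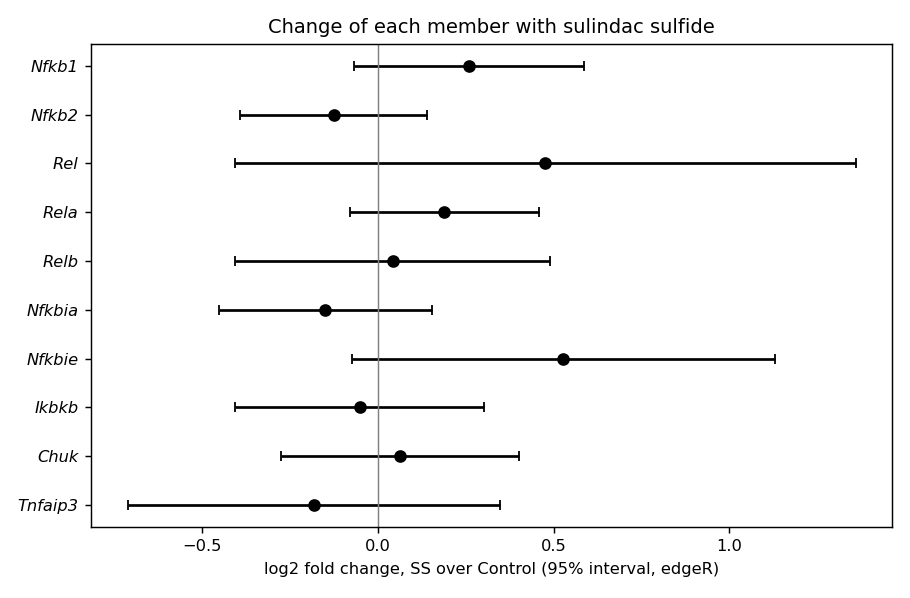
Log2 fold change of SS over control tumors for each NF-kB gene (points) with its 95% interval (bars) from edgeR. Every interval crosses 0, and those of Rel and Nfkbie are the only ones that reach past 1.

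The subunits differ in how they are made. Rela, Relb and Rel carry an activation domain and are translated in their active form, while Nfkb1 and Nfkb2 are made as the precursors p105 and p100 and are trimmed to p50 and p52. Rela, the main activating partner of p50 (chr19:5637490-5648130, plus strand, GRCm38), measured 45.7, 51.6 and 53.6 CPM in controls 1, 2 and 3, against 57.1, 61.3 and 53.9 CPM in SS tumors 1, 2 and 3. The SS tumors were all above the control tumors, but SS tumor 3 and control tumor 3 were nearly level. The group means were 50.3 ± 4.11 CPM (SD, n = 3) and 57.4 ± 3.75 CPM (SD, n = 3), or 0.19 on the log2 scale (standard error 0.116, adjusted p = 0.834, edgeR). With 1 tumor left out the Rela difference ran from 0.12 without control tumor 1 to 0.24 without control tumor 3. With no filter on low counts, the Rela groups overlapped.

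Nfkb1 (chr3:135584655-135691547, minus strand), the p105 precursor of p50, measured 87.0, 67.9 and 72.8 CPM in controls, against 101, 91.8 and 79.2 CPM with SS. SS tumors 1 and 2 exceeded all control tumors, whereas SS tumor 3 fell below control tumor 1. SS tumors differed by 0.26 on the log2 scale (standard error 0.141, 95% interval -0.067 to 0.59, adjusted p = 0.799, edgeR). Without control tumor 1 the log2 difference was 0.37 (unadjusted p = 0.039, adjusted p = 0.613, edgeR), and without SS tumor 1 it was 0.17 (unadjusted p = 0.307, edgeR).

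Nfkb2 (chr19:46304737-46312090, plus strand), the p100 precursor of p52 in the alternative pathway, had the opposite sign. It measured 46.6, 52.8 and 48.0 CPM in controls, against 42.0, 47.4 and 45.8 CPM with SS, with overlap through control tumor 1 and SS tumor 2. On the log2 scale the difference was -0.12 (standard error 0.114, adjusted p = 0.895, edgeR), and it was -0.069 without control tumor 2 and -0.078 without SS tumor 1. Nfkb2 was also the steadiest of the 10 genes, with an SD of log2 CPM over the 6 tumors of 0.106, where the median over all genes tested was 0.292.

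Relb (chr7:19606222-19629438, minus strand) pairs with p52 and acts in the alternative pathway. It measured 10.7, 11.1 and 11.7 CPM in controls, against 11.4, 9.65 and 13.4 CPM with SS. SS tumor 1 lay within the narrow control range, SS tumor 2 below it and SS tumor 3 above it. On the log2 scale the difference was 0.042 (standard error 0.192, adjusted p = 0.972, edgeR), and it turned to -0.087 without SS tumor 3.

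Rel (chr11:23741729-23770970, minus strand), which encodes c-Rel, is best known from lymphocytes and myeloid cells, and had the lowest counts of the 10 genes, with 33, 52 and 111 counts in the control and 70, 27 and 62 counts in the SS tumors. These correspond to 2.61, 2.55 and 4.55 CPM and to 5.07, 3.22 and 5.23 CPM. Control tumor 3 and SS tumor 2 fell among the tumors of the other group. SS tumors differed by 0.48 on the log2 scale (standard error 0.381, 95% interval -0.41 to 1.36, adjusted p = 0.880, edgeR). It ranged from 0.33 without control tumor 2 (unadjusted p = 0.478, edgeR) to 0.81 without control tumor 3 (unadjusted p = 0.0924, edgeR). In linear terms the interval runs from 0.754 to 2.57.

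The IkB inhibitors are themselves induced by NF-kB and close its feedback loop. Nfkbia (chr12:55489409-55492647, minus strand), which encodes IkBα, measured 430, 342 and 452 CPM in controls, against 394, 332 and 378 CPM with SS. Control tumor 2 lay within the SS range, and the other control tumors were above it. SS tumors differed by -0.15 on the log2 scale (standard error 0.131, 95% interval -0.45 to 0.16, adjusted p = 0.890, edgeR), that is a fold change of 0.902 with bounds of 0.731 and 1.11. With 1 tumor left out it ranged from -0.26 without control tumor 2 (unadjusted p = 0.0599, edgeR) to -0.066 without control tumor 3.

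Nfkbie (chr17:45555700-45563168, plus strand), which encodes IkBε, had the largest difference of the 10 genes. It measured 18.6, 10.2 and 13.3 CPM in controls, against 19.9, 24.3 and 16.4 CPM with SS. Control tumor 1 exceeded SS tumor 3, and apart from that pair the SS tumors were higher. The means were 14.0 ± 4.24 CPM (SD, n = 3) and 20.2 ± 3.97 CPM (SD, n = 3), or 0.53 on the log2 scale (standard error 0.259, 95% interval -0.074 to 1.13, adjusted p = 0.792, edgeR). The unadjusted p of 0.0775 in edgeR's test ranked 1058 among the 10902 genes. The result moved both ways with single tumors. Without control tumor 1 the log2 difference was 0.78 (unadjusted p = 0.0148, adjusted p = 0.548, edgeR), a setting in which 7.81% of all genes had an unadjusted p under 0.05. Without control tumor 2 it was 0.34, and without SS tumor 2 it was 0.38.

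The IKK complex consists of the kinases IKKα (Chuk) and IKKβ (Ikbkb) and a scaffold. Ikbkb (chr8:22659205-22706583, minus strand), the kinase of the canonical pathway, measured 46.1, 49.8 and 45.5 CPM in controls, against 55.2, 39.3 and 41.8 CPM with SS. SS tumor 1 was the highest of all and the other SS tumors were the lowest, so that the SD was 8.58 CPM in the SS and 2.32 CPM in the control group (n = 3 each). On the log2 scale the difference was -0.051 (standard error 0.152, adjusted p = 0.962, edgeR), and it was 0.041 without SS tumor 2 and 0.0044 without SS tumor 3.

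Chuk (chr19:44073334-44107477, minus strand) serves both pathways and is the kinase that acts on p100. It measured 140, 96.4 and 114 CPM in controls, against 126, 126 and 113 CPM with SS. All SS tumors lay within the control range. SS tumors differed by 0.063 on the log2 scale (standard error 0.145, 95% interval -0.27 to 0.40, adjusted p = 0.947, edgeR), a difference that turned to -0.057 without control tumor 2.

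Tnfaip3 (chr10:19000910-19015410, minus strand) encodes A20, an NF-kB-induced ubiquitin-editing enzyme that shuts the signal off upstream of IKK. It measured 11.1, 8.30 and 10.9 CPM in controls, against 10.7, 7.86 and 8.02 CPM with SS. SS tumors 2 and 3 were below the controls, and SS tumor 1 was within their range. SS tumors differed by -0.18 on the log2 scale (standard error 0.228, 95% interval -0.71 to 0.35, adjusted p = 0.923, edgeR). Leaving out SS tumor 1 gave -0.35 and leaving out SS tumor 2 gave -0.10, the extremes with 1 tumor left out.

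Levels of different genes were compared after division by transcript length, in CPM per kilobase, as the mean over the 6 tumors with the lowest and highest tumor. Nfkbia stood far above the rest at 246 CPM per kilobase (210 to 286), followed by Chuk at 34.2 (27.6 to 40.0), and neither range met that of its neighbor in the order. Nfkb1 at 20.3 (16.5 to 24.7), Rela at 19.9 (16.9 to 22.6), Nfkb2 at 16 (14.3 to 17.9) and Ikbkb at 12.9 (11 to 15.4) CPM per kilobase followed, and each overlapped the next. Below the range of Ikbkb came Nfkbie at 7.15 (4.25 to 10.2), whose range overlapped that of Relb at 5.15 (4.39 to 6.10) CPM per kilobase. Tnfaip3 at 2.17 (1.80 to 2.54) and Rel at 1.5 (0.988 to 2.03) CPM per kilobase lay below Relb and overlapped each other. Nfkb1 and Rela, whose products form the canonical dimer, could thus not be ordered by level. The value of Rel depends on its transcript model, which spans 2584 bases in the deposited table and 7466 bases in GENCODE M21.

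**Figure D3:**
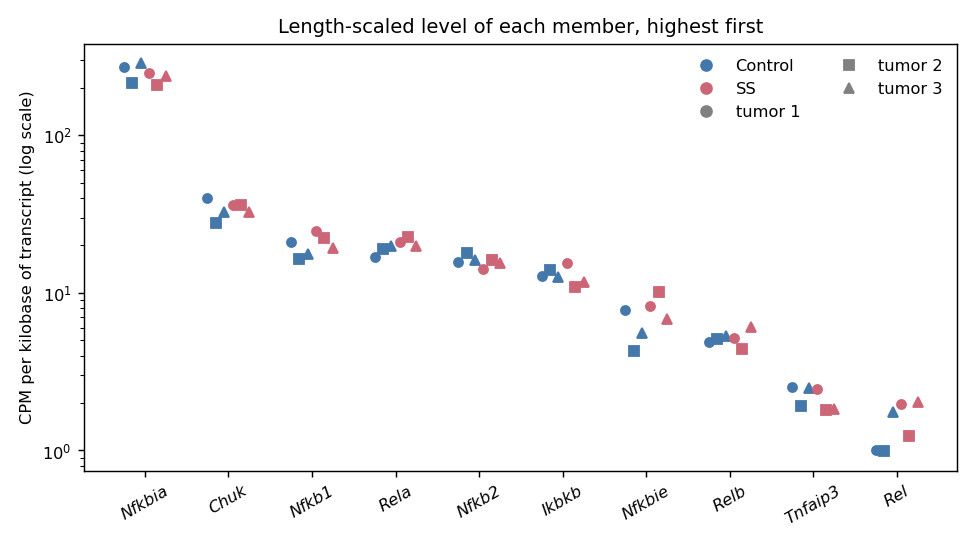
Level of each NF-kB gene in CPM per kilobase of transcript (vertical axis, log scale) in each tumor, ordered by the mean over the 6 tumors. Colors give the group and shapes the tumor number. Nfkbia lies at 210 to 286 in every tumor, and Rel, the lowest, at 0.988 to 2.03.

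Among the 6 tumors, the highest level of a gene was between 1.26 times (Nfkb2) and 2.39 times (Nfkbie) the lowest. Only Rel, with an SD of log2 CPM of 0.459, and Nfkbie, with 0.442, varied more than the median gene. Control tumor 2 was the lowest tumor for 4 of the 10 genes (Nfkb1, Rel, Nfkbie and Chuk), and SS tumor 2 for another 4 (Relb, Nfkbia, Ikbkb and Tnfaip3). These tumors had the highest sum of muscle markers in their groups, 9111 and 17482 CPM, SS tumor 2 was also the shallowest library, and whether either bears on the low values was not tested.

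Ratios within a tumor do not depend on how libraries are scaled, and 4 were compared between groups by an exact two-sided permutation test, which for 3 against 3 tumors cannot give a p below 0.1. The log2 ratio of inhibitor to factor, Nfkbia to Rela, was 3.23, 2.72 and 3.07 in controls, against 2.79, 2.43 and 2.81 with SS. SS tumors 1 and 3 lay just above control tumor 2 and below the other controls, and the difference of the means was -0.33 (exact permutation p = 0.3). The log2 ratio of Nfkb2 to Nfkb1 was -0.90, -0.36 and -0.60 in controls, against -1.27, -0.95 and -0.79 with SS. The means differed by -0.38, with control tumor 1 below SS tumor 3 (exact permutation p = 0.2). Leaving out single tumors took Nfkbia to Rela from -0.48 (control tumor 2) to -0.21 (SS tumor 2), and Nfkb2 to Nfkb1 from -0.52 (control tumor 1) to -0.25 (SS tumor 1 or control tumor 2). For the kinases, Chuk to Ikbkb differed by 0.14 (exact permutation p = 0.6), with 1.59, 0.95 and 1.32 in controls against 1.19, 1.67 and 1.44 with SS. Relb to Rela differed by -0.16 (exact permutation p = 0.5), with an SD of 0.061 in the control and 0.33 in the SS tumors. After Benjamini-Hochberg adjustment over the 4 ratios each exact permutation p was 0.6.

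The deposited table splits 5 of the genes into more than 1 transcript, and 2 of them, Nfkbie and Relb, had transcript shares that did not overlap between groups. That is 4 of the 11 transcripts of these 5 genes, where the 2 shares of Nfkbie mirror each other, as do those of Relb. Over all genes with more than 1 transcript, the shares of 1167 of 10315 transcripts (11.3%) did not overlap. For Nfkbie, NM_001304956 took 51.8%, 27.6% and 29.1% of the gene's counts in control tumors 1, 2 and 3 and 80.0% in each of the SS tumors, and NM_008690 took the remainder. For Relb, NM_001290457 took 53.3% in each control tumor and 20.8%, 29.2% and 39.3% in SS tumors 1, 2 and 3, with NM_009046 taking the remainder. These shares describe the deposited split of reads among transcripts and were not tested.

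The Nfkbie transcripts differ at their 3′ end. NM_008690, of 364 coded residues, holds the 66 coding bases up to its stop codon that are in capitals here (chr17:45562002-45562067, plus strand, GRCm38, from GENCODE M21), whereas NM_001304956, of 371 coded residues, lacks them. The Relb transcripts differ by a 9-base exon (chr7:19622926-19622934, minus strand), in capitals below, which NM_009046 holds and NM_001290457 lacks, so that they code for 558 and 555 residues. Lower case letters are the neighboring bases of the transcript, and these stretches are shown because each is present in only 1 of the 2 transcripts of its gene. For Nfkbie the stretch is not the whole difference, since the longer coding sequence of NM_001304956 ends in other residues.
Nfkbie, NM_008690: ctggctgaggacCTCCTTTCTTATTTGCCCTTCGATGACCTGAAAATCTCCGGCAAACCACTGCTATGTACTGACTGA
Relb, NM_009046: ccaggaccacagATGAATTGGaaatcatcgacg

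Some of these shares were identical in tumors of different depth. In the SS tumors the share of NM_001304956 was 80.0063% in all 3 while the Nfkbie counts were 274, 204 and 194. Tnfaip3 showed this in all 6 tumors, with 72.1% for NM_001166402 and 27.9% for NM_009397. Across the table, of 10256 transcripts of genes with several transcripts and counts in every tumor, the share was equal within 0.1% in all 6 tumors for 686 (6.69%), in the 3 control tumors for 964 (9.40%) and in the 3 SS tumors for 1244 (12.1%). The table therefore does not give 3 separate measurements of the Nfkbie split in the SS group or of the Relb split in the control group. The sums per gene used above do not depend on this split.

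The other genes with several transcripts had shares that overlapped between groups. For Chuk, NM_001162410 took 51.7%, 50.8% and 61.4% in controls, against 43.8%, 75.9% and 63.8% with SS. For Nfkb2, NM_001177369 took 55.5%, 19.8% and 58.9% in controls, against 32.5%, 58.6% and 19.1% with SS. In the deposited split the major Nfkb2 transcript alternated with NM_001177370 from tumor to tumor within each group, while the summed Nfkb2 level was the steadiest of the 10 genes. The third transcript, NM_019408, rose and fell in step with NM_001177369, at 5.21%, 1.86% and 5.54% in controls and 3.06%, 5.50% and 1.79% with SS. The Nfkb2 shares may therefore not be separate measurements of each transcript either, and whether the transcripts themselves alternated was not tested.

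**Figure D4:**
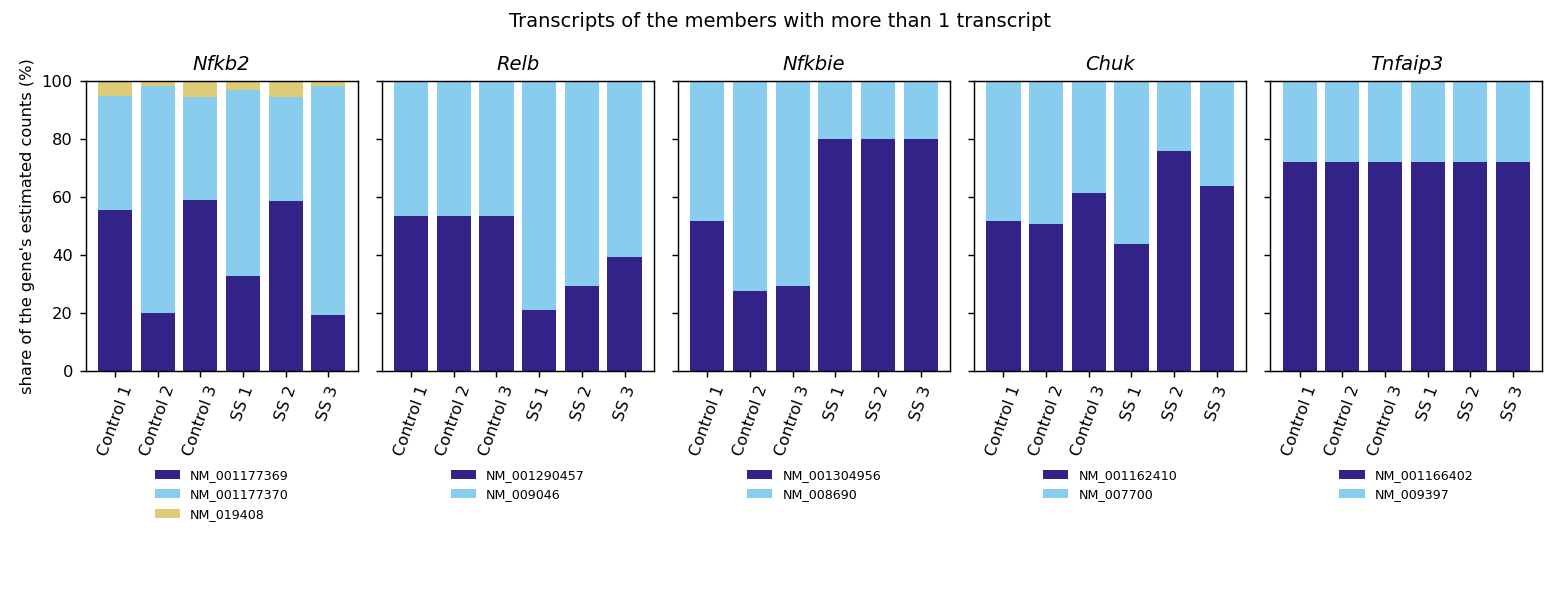
Share of each deposited RefSeq transcript in the estimated counts of its gene (vertical axis, percent) in each tumor, for the 5 NF-kB genes with more than 1 transcript. Nfkbie has equal shares of 80.0% and 20% in the 3 SS tumors, Relb equal shares of 53.3% and 46.7% in the 3 control tumors, and Tnfaip3 equal shares of 72.1% and 27.9% in all 6.

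Beyond the core, 40 other components of the pathway were followed, of which 36 were tested. In SS tumors 15 were higher and 21 lower, with a median log2 fold change of -0.085, and none had an unadjusted p under 0.05 in edgeR's quasi-likelihood test (6.36% of all genes) or an adjusted p under 0.05. DESeq2's Wald test gave 2 at an unadjusted p under 0.05, Tab2 and Traf5 (6.31% of all genes by that test). The groups did not overlap for 5 of the 36. Of these, Map3k14, which encodes the kinase NIK that activates Chuk, and Tax1bp1, a partner of A20, were higher (6.51% of all genes). Traf1, Rnf31 (the ubiquitin ligase HOIP) and Fbxw11, which destroys phosphorylated IkB, were lower (6.4% of all genes). By role, 2 of 3 other IkB proteins, 4 of 8 other kinases and their subunits, 7 of 17 adaptors and ubiquitin ligases, and 2 of 8 brakes were higher. The largest differences were -0.64 for Irak2, a kinase of Toll-like and IL-1 receptor signaling (standard error 0.359, adjusted p = 0.813, edgeR), 0.62 for the adaptor Traf5 (standard error 0.298, adjusted p = 0.792, edgeR) and 0.54 for Bcl3, a nuclear IkB protein (standard error 0.364, adjusted p = 0.860, edgeR). With 1 tumor left out, Irak2 ranged from -1.08 without SS tumor 3 to -0.35 without control tumor 3, and Traf5 from 0.35 without control tumor 3 to 0.88 without control tumor 1.

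Genes known to be switched on by NF-kB were followed as a readout of its output. Of 36 genes listed, 10 were not analysed here, 5 did not pass the filter on low counts and 21 were tested. In SS tumors 9 were higher and 12 lower, with a median log2 fold change of -0.12. An unadjusted p under 0.05 was reached by 2 of the 21 (6.36% of all genes), Junb and Saa3, the first lower (3.16% of all genes were lower at that level) and the second higher (3.19%), and after adjustment 0 of them stayed under 0.05 (edgeR, where all genes tested gave 0%). By role, 1 of 4 cytokines and chemokines tested (of 13 listed), 0 of 4 adhesion and matrix genes, 2 of 3 enzymes and 4 of 5 survival and growth genes were higher. Of the 5 other targets tested, which include Junb and Saa3, 2 were higher.

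Junb, a subunit of the AP-1 transcription factor that answers to many signals beside NF-kB, measured 159, 140 and 195 CPM in controls, against 121, 116 and 125 CPM with SS. The groups did not overlap. On the log2 scale the difference was -0.45 (standard error 0.133, unadjusted p = 0.0101, adjusted p = 0.771 in edgeR's test, and adjusted p = 0.171 in DESeq2's test). The acute-phase gene Saa3 measured 10.3, 14.8 and 10.7 CPM in controls, against 7.54, 64.9 and 59.4 CPM with SS. SS tumor 1 was the lowest of all while SS tumors 2 and 3 were far above the controls, with a log2 difference of 1.87 (standard error 0.663, unadjusted p = 0.0233, adjusted p = 0.771, edgeR). With 1 tumor left out, Junb ran from -0.55 to -0.31 and kept an unadjusted p under 0.05 each time in edgeR's test. Saa3 ran from 1.48 to 2.37 and lost it without control tumor 1, control tumor 3, SS tumor 2 or SS tumor 3, and it also lost it with quantile normalization and limma, at 1.38 (unadjusted p = 0.16, limma), and with the replicate number as a block, at 1.48. Plau, the urokinase plasminogen activator, was the other target whose groups did not overlap, at -0.61 on the log2 scale, which makes 2 of 21 (9.52%) beside 12.9% of all genes. Without control tumor 3, Plau was at -0.40. The largest remaining differences were -0.86 for Zc3h12a, an RNase that degrades cytokine RNA (standard error 0.612, adjusted p = 0.860, edgeR), and -0.65 for the matrix protease Mmp9 (standard error 0.468, adjusted p = 0.863, edgeR). Without control tumor 3, Zc3h12a was at -0.43 and Mmp9 at -0.037.

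**Figure D5:**
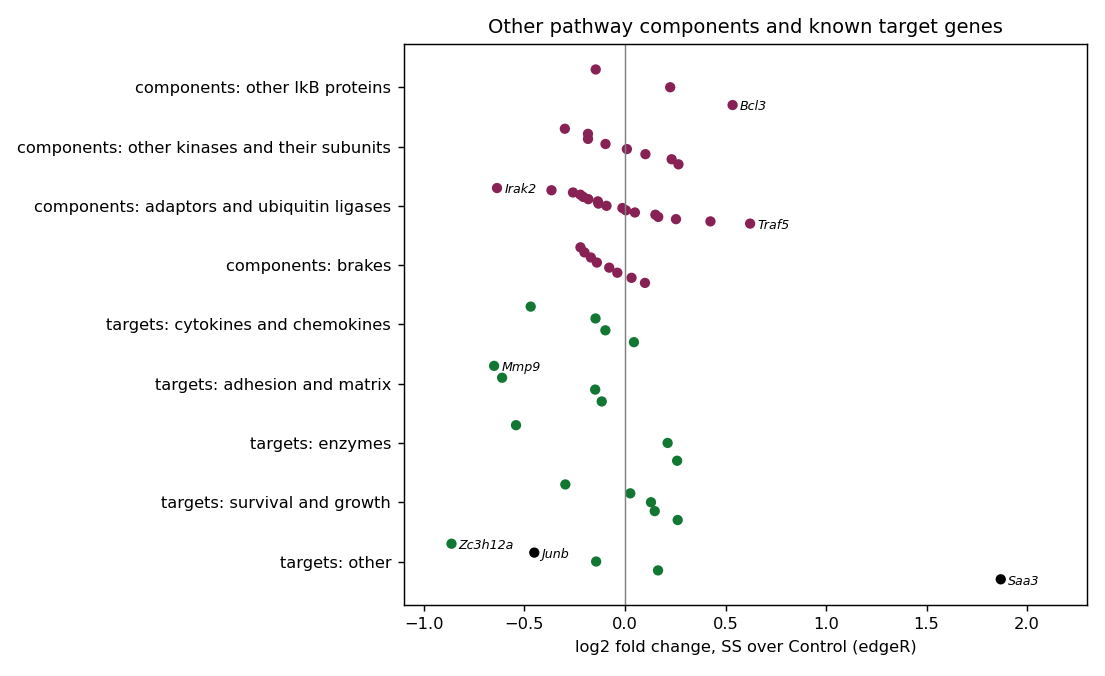
Log2 fold change of SS over control tumors (horizontal axis, edgeR) for the 36 other pathway components and the 21 known NF-kB target genes tested, in rows by role. Black points had an unadjusted p under 0.05, and the named points are these and the 3 largest differences of each list. The components spread around 0 between -0.64 and 0.62, and Saa3 at 1.87 stands apart from the other targets.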

How the data were processed

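Stranded, polyadenylated RNA of 6 tumors was sequenced as paired reads of 75 nucleotides. The deposited table holds the estimated counts of the authors for each RefSeq transcript, not normalized and with low entries removed, in which every transcript had at least 10 counts over the 6 tumors. The submitters' processing notes name CASAVA 1.8.1, Bowtie2 2.2.5, STAR 2.5.3a and mm10, and their order and the counting tool are not given in the sources used here. The values are whole for 84.5% of transcripts of genes with 1 transcript and for 0.11% of the others (within 0.001). Positions follow the deposited table (GRCm38), with the stop reduced by 1 base, since 5212 of 9572 genes with 1 transcript then end where RefSeq does, against 405 otherwise. Symbols turned into dates were restored for 22 genes.

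Counts were summed by symbol, rounded and compared with edgeR 4.0.16 in R 4.3.3 (TMM scaling, a filter with a minimum count of 10, quasi-likelihood test, Benjamini-Hochberg adjustment over 10902 genes). CPM are counts scaled to library size with the TMM factors. The standard error is |log2 fold change| over the root of F. Lengths come from GENCODE M21 exons within the deposited span. Tumors are taken as separate mice, as labeled, and p-values measure only the spread between them. Intervals cover this model, and 3 counts, the least taken as detected, equal 0.123 to 0.354 CPM.

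The genes and lists were chosen with earlier results of these data known. All core genes are named, and of the component, target, myeloid and tumor cell lists those with an unadjusted p under 0.05 and the 3 with the largest change. Other marker lists are given as sums, with the part of Cd3e and Erbb2 in theirs. Map3k14, Tax1bp1, Traf1, Rnf31, Fbxw11, Tab2, Plau, Cd68, Csf1r, Met, Vim, Cd3e and Erbb2 were named after their values had been seen. The script was tested on simulated data. Alternatives were RLE scaling, no filter, a minimum count of 30, DESeq2 1.42.0, quantile normalization with limma 3.58.1 (the route nearest to that of the study), the replicate number as a block and leaving out each tumor. Thinning to the smallest library was added after seeing the data.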

Additional observations from a re-analysis of the deposited data

How the results depend on the processing

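Of 130 log2 fold changes of the 10 NF-kB genes under the alternatives, 126 kept their sign and 4 changed it, and none had an adjusted p under 0.05 where one was given (DESeq2 gave none for Rel and Tnfaip3). With 1 tumor left out, Relb ran from -0.087 (without SS tumor 3) to 0.15, Ikbkb from -0.22 to 0.041 (without SS tumor 2; 0.0044 without SS tumor 3) and Chuk from -0.057 (without control tumor 2) to 0.21. The log2 ratio of Chuk to Ikbkb ran from -0.024 (without control tumor 2) to 0.30, and that of Relb to Rela from -0.33 to 0.0037 (without SS tumor 2). The lowest adjusted p of a core gene under any alternative was 0.548. DESeq2 called 35 of all genes at an adjusted p under 0.05, none of them a core gene, and every other alternative called 0. Leaving out 1 tumor gave 0 to 2 core genes with an unadjusted p under 0.05 (2 without control tumor 1, Nfkb1 and Nfkbie, where 7.81% of all genes did, the highest share of any setting, against 4.58% without control tumor 3) and 2 to 4 whose groups did not overlap (21.1% to 25.4% of all genes), while the number was 0 with no filter (11.9% of all genes) and 2 (Rela and Nfkb2) with quantile normalization and limma (12.6%). Other components with an unadjusted p under 0.05 numbered 2 of 36 with DESeq2 (6.31% of all genes), 1 after thinning (6.54%) and 0 to 2 with 1 tumor left out (4.58% to 7.81%). Among the 21 targets the number was 1 to 2 with 1 tumor left out, beside the same 4.58% to 7.81% of all genes.

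Tumors with the same replicate number came from different mice. The correlation of their deviations, each taken from its group mean, averaged 0.071 (0.0205 to 0.116). Of the 6 tumors, 3 were closest to the tumor of their own number. With so few tumors this cannot decide whether those of 1 number were handled together, and the labels give no pairing. With the replicate number as a block, 643 genes (5.9%) in place of 693 had an unadjusted p under 0.05 and 0 an adjusted p under 0.05. Core genes stayed at 0, other components rose to 2 (Irak2 and Traf5) and targets were at 1 (Junb). Depth limits Rel most, with as few as 27 counts in a tumor.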

Other observations

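The genes whose levels followed those of the 2 most variable core genes most closely over the 6 tumors were listed by the root mean square difference of log2 CPM centred on each gene. For Rel these were Cp (0.0940), which encodes ceruloplasmin, Lonrf3 (0.129) and Zbtb48 (0.140). For Nfkbie these were Mrpl47 (0.104), a mitochondrial ribosomal protein gene, Cpne8 (0.110) and Slc9a7 (0.121). Cp measured 73.6, 84.6 and 146 CPM in controls, against 139, 94.9 and 157 CPM with SS, so that, like Rel, it was high in control tumor 3 and low in SS tumor 2. These genes are the closest of 10902 searched over 6 tumors, and the likeness was not tested.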
